A study of Mus musculus with 11 samples.

Results

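H3K27me3, trimethylation of lysine 27 of histone H3, was mapped from 20000 and from 250000 cells, and the 250000-cell peaks found again with 20000 cells were compared with those that were not. The members are the 13511 peaks of the 250000-cell library (250K) on chromosomes 1 to 19. A 250K peak was called recovered when it shared at least 1 bp with any of the 7080 peaks of the 20000-cell library (20K), and lost otherwise. By this rule 5870 peaks (43.4%, 95% Wilson interval 42.6 to 44.3%) were recovered and 7641 (56.6%) were lost. Whether a peak is recovered rests on the peak lists alone, and every share below describes these lists.

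Both libraries came from E14 mouse embryonic stem cells, an established line of 129/Ola background grown in serum with leukemia inhibitory factor. Both used the same anti-H3K27me3 antibody and the same CUT&Tag-BS protocol, and they differed in the number of cells (20000 or 250000). In CUT&Tag-BS the antibody brings a transposase to chromatin that carries the mark, and the released fragments are treated with bisulfite, so that 1 library reports both where the mark lies and whether CpGs on those fragments are methylated. The series holds 11 samples in all. Libraries of the same mark from 4000 (4K) and 100000 (100K) cells and a control from 250000 cells without bisulfite are used here as further views of the same peaks.

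H3K27me3 is written by the Polycomb repressive complex PRC2 and marks genes that are kept silent but can be turned on later. In embryonic stem cells it covers the CpG islands of genes for developmental transcription factors and signals, the Hox clusters above all. DNA methylation and H3K27me3 tend to exclude each other at CpG islands, while in CpG-poor DNA the mark can lie over methylated CpGs.

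There is 1 library per cell number, so no test across libraries was possible, and neither peaks nor chromosomes are replicates. The 20K library also held fewer CpG calls (readings of 1 CpG on 1 read) than the 250K library, 4934467 against 36558653 on chromosomes 1 to 19, a ratio of 7.41 where the cells differ by a ratio of 12.5. Cell number and depth therefore cannot be told apart. The share of CpGs with a call was 9.49% in the 20K and 28.4% in the 250K library. Wilson intervals below cover counting error only, since calls on 1 fragment and amplified copies are not independent. As a check of the label, promoters of 45 genes that are silent Polycomb targets in these cells were counted: 44 carried a 20K peak and 45 a 250K peak. Of 13 genes active in these cells 1 carried a peak, Esrrb, in both lists.

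The promoters of 3 recovered and 5 lost peaks are given as examples, chosen by calls or level and not as typical of each class. They are 300-base RefSeq promoter sequences (GRCm38.p6, the assembly also called mm10), from 250 bases before to 50 bases after a gene start, read 5′ to 3′ on the strand of the gene, with CpGs in capitals. All were chosen among genes of the lists used below whose 300 bases lie within the peak, 1 per peak. The first 3 lie in the recovered peaks with the most 250K calls by this choice: Hoxc4 (chr15:103034145-103034444, + strand), Hoxd1 (chr2:74762730-74763029, + strand) and Hoxa5 (chr6:52204538-52204837, − strand), transcription factors that give cells their position along the body axis.
Hoxc4: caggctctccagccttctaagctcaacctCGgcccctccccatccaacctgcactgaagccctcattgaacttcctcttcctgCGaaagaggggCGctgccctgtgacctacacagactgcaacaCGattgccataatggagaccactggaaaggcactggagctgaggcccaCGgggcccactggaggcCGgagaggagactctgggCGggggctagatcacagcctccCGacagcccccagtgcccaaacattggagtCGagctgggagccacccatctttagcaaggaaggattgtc
Hoxd1: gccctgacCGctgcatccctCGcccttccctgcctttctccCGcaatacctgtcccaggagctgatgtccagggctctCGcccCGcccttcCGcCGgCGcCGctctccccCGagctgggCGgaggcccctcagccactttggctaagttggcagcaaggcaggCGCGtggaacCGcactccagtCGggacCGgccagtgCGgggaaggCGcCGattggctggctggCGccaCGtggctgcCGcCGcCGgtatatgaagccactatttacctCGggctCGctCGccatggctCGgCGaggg
Hoxa5: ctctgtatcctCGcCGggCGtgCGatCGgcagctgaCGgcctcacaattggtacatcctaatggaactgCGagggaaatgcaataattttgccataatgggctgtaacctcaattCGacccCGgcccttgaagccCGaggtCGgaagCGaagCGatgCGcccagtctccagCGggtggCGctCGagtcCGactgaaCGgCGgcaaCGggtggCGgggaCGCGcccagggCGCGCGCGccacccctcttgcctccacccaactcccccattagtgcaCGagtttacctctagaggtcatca
The Hoxd1 and Hoxa5 windows hold 29 CpGs each and the Hoxc4 window 9, where the median of 31396 promoters is 7. The level of the Hoxd1 window, methylated calls over all calls, was 0.735% of 272 calls in the 20K library and 0.758% of 1979 calls in the 250K library. The Hoxa5 window had 1.98% of 101 calls and 1.68% of 1492 calls, and the Hoxc4 window 16.0% of 94 and 19.7% of 1018. At all 3 windows the intervals of the libraries overlap (Hoxc4: 9.92 to 24.7% with 20K, 17.4 to 22.3% with 250K).

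The next 3 are the promoters of listed genes in the lost peaks with the most 250K calls by the same choice: Gdf1 (chr8:70329515-70329814, + strand), a growth factor of left-right patterning, Slc25a31 (chr3:40708621-40708920, + strand), an ADP/ATP carrier of the male germline, and Cacng6 (chr7:3424412-3424711, + strand), an auxiliary calcium channel subunit.
Gdf1: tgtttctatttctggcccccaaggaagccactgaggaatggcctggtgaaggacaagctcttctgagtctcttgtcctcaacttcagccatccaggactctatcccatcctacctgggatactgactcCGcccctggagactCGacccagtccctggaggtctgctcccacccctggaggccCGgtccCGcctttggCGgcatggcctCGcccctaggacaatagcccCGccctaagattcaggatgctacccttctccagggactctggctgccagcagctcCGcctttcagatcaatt
Slc25a31: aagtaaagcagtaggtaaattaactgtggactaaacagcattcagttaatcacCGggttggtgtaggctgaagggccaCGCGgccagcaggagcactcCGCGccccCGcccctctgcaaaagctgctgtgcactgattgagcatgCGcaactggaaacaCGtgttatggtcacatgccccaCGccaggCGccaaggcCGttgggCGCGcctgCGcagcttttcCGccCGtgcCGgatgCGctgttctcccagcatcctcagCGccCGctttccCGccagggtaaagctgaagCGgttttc
Cacng6: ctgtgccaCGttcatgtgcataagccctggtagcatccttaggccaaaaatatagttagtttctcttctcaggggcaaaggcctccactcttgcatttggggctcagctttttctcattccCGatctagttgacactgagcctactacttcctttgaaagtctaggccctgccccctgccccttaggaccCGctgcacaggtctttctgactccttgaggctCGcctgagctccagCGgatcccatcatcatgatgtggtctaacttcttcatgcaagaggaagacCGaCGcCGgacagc
The Gdf1 window, with 8 CpGs, had 0 methylated of 15 calls in the 20K library, which allows a level of up to 20%, and 3.2% of 125 calls in the 250K library. Another start of Gdf1 lay in a recovered peak. The Slc25a31 window held 22 CpGs, of which the 20K library called 10, and its level was 76.9% of 13 calls against 47.5% of 244 calls, with overlapping intervals (49.7 to 91.8% and 41.4 to 53.8%). The Cacng6 window, with 8 CpGs, had 25% of 12 calls and 35.3% of 51 calls. None of these 3 windows had over 15 calls with 20000 cells.

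The last 2 are the promoters of listed genes in the lost peaks with the highest 250K level by the same choice: Kcnip1 (chr11:33993144-33993443, − strand), a potassium channel interacting protein with another start in a recovered peak, and Krt73 (chr15:101802311-101802610, − strand), a keratin of the hair root sheath.
Kcnip1: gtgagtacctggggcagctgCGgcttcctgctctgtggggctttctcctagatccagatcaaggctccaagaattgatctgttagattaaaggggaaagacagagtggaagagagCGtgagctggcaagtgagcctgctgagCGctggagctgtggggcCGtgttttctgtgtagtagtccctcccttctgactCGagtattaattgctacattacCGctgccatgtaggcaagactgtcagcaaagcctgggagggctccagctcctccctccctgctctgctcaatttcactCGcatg
Krt73: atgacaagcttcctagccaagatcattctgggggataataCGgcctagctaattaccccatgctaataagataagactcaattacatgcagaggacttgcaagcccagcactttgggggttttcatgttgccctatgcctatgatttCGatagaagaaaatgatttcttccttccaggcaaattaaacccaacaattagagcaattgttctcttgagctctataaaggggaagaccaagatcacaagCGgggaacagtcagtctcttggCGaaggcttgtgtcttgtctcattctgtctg
They hold 7 and 4 CpGs. The Kcnip1 window was methylated in 27 of 30 calls in the 250K library (90%) and in 6 of 7 calls in the 20K library, and the Krt73 window in 8 of 10 and 4 of 5. Both peaks as a whole were methylated too, at 93.4% (Kcnip1) and 88.9% (Krt73) of 250K calls. The 8 sequences thus run from unmethylated CpG islands to CpG-poor methylated DNA. The high level of the last 2 peaks follows from the choice. Of all lost peaks 40.1% lay inside genes away from a promoter and 35.4% between genes, and no sequence here comes from those.

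Recovered peaks were wide, and lost peaks were narrow. The median width was 7832 bp (quartiles 4700 and 12673 bp) for recovered and 1519 bp (1001 and 2860 bp) for lost peaks, and 1001 bp was the smallest width in the list. A wider peak also offers more bases to the 1 bp rule. Of 4993 peaks 1 to 2 kb wide 4.23% were recovered, of 2680 peaks of 2 to 4 kb 33.5%, of 2747 peaks of 4 to 8 kb 68.8%, and of 3091 peaks over 8 kb 92.9% (interval 91.9 to 93.7%). The share recovered ranged over the 19 chromosomes from 38.5% (chromosome 15) to 48.8% (chromosome 18), with a median of 43.4%.

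Signal in the 250K library separated the peaks most sharply. Among peaks with at least 20 calls per CpG in the 250K library all 2043 were recovered, and among 1894 peaks with 10 to 20 calls per CpG 97.9% were. The share was 50.9% of 3213 peaks at 5 to 10 calls per CpG and 5.27% of 6246 peaks at 2 to 5. Lost peaks with at least 10 calls per CpG numbered 39, with a median width of 1757 bp. The median peak had 14.3 calls per CpG among recovered and 4 among lost peaks. Recovery rose with width within a bin of calls per CpG too: at 5 to 10 calls per CpG 12.8% of peaks of 1 to 2 kb, 49.1% of 2 to 4 kb, 69.7% of 4 to 8 kb and 88.3% over 8 kb were recovered.

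CpG density separated the peaks in a curve with a middle maximum. Recovery was 13.3% of 2716 peaks with under 10 CpGs per kb, 42.2% of 5544 peaks with 10 to 20, 64.9% of 4456 peaks with 20 to 40, and 35.5% of 795 peaks with 40 or more. The medians were 20.7 CpGs per kb for recovered and 13.6 for lost peaks. Within a width class the densest peaks lay nearer to those with 20 to 40 CpGs per kb. Among peaks of 2 to 4 kb 53.5% of 284 of the densest class were recovered, against 56.6% of 896 with 20 to 40. Among peaks of 4 to 8 kb the shares were 83.5% of 97 and 91.6% of 1149, against 29.5% of 353 with under 10 CpGs per kb.

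**Figure D1:**
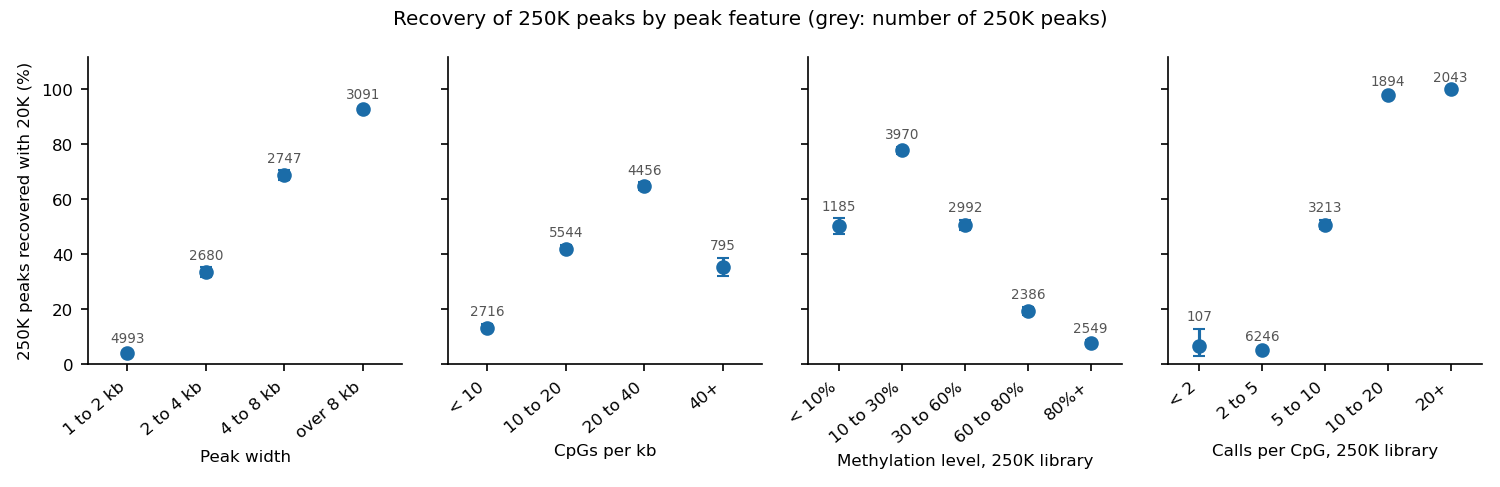
Share of 250K peaks recovered with 20000 cells (y axis, percent) by peak width, CpGs per kb, methylation level and calls per CpG in the 250K library (x axes, bins). Points are shares with 95% Wilson intervals and grey numbers are the 250K peaks in the bin. Recovery rises with width (4.23 to 92.9%) and with calls per CpG (up to 100%), and is highest at 20 to 40 CpGs per kb and at levels of 10 to 30%.

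Methylation differed widely between recovered and lost peaks. With at least 20 calls required, the median peak level in the 250K library was 24.0% (quartiles 15.3 and 38.1%) over 5860 recovered peaks and 69.3% (38.5 and 83.6%) over 7222 lost peaks. Of 3970 peaks with a level of 10 to 30% 77.9% were recovered, of 1185 peaks under 10% 50.3%, of 2992 peaks at 30 to 60% 50.7%, of 2386 peaks at 60 to 80% 19.4%, and of 2549 peaks at 80% or more 7.61% (interval 6.64 to 8.71%).

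The relation with level held within each width class. Among peaks of 2 to 4 kb 63.7% of those at 10 to 30% methylation were recovered against 5.06% of those at 80% or more, among peaks of 4 to 8 kb 93.5% against 17.3%, and over 8 kb 99.6% against 56.5%. It narrowed within bins of calls per CpG: at 5 to 10 calls per CpG the shares were 61.7% and 27.9%, at 10 to 20 they were 98.5% of 996 and 85% of 20 peaks, and at 2 to 5 they were 10.1% and 2.54%. Methylated peaks were thus lost more often within these bins too, though by less than among all peaks. Calls per CpG still varied within a bin, and width was not held there. The part of signal or width in the remaining difference was not tested.

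**Figure D2:**
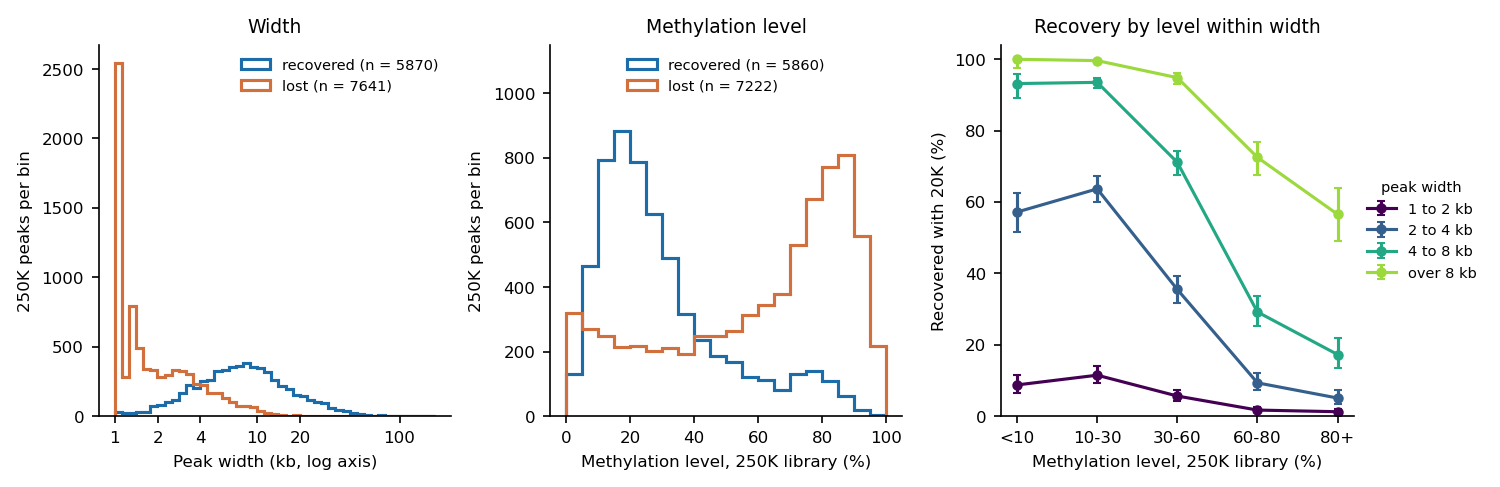
Left and middle, numbers of recovered (blue) and lost (orange) 250K peaks by width (kb, log axis) and by methylation level in the 250K library (percent, peaks with at least 20 calls). Right, share recovered (percent, 95% Wilson intervals) by level within 4 width classes. Lost peaks pile up at 1 kb and near 80 to 90% methylation with a smaller group below 10%, and in each width class recovery falls from 10 to 30% methylation upward.

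The lost peaks were of more than 1 kind. CpG-poor methylated peaks, with under 20 CpGs per kb and a level of 60% or more, made up 3941 of them (51.6%), and 13.8% of the 4574 such 250K peaks were recovered. Of the lost peaks of this kind 44.99% lay inside genes away from a promoter and 43.0% between genes, and 5.43% lay at another protein-coding promoter. Among all lost peaks, this kind included, these shares were 40.1, 35.4 and 17.1%. CpG islands without methylation, with at least 40 CpGs per kb and a level under 10%, made up 360 (4.71%). Their median width was 1305 bp (rounded from 1304.5), 87.5% of them lay at promoters of protein-coding genes outside the developmental regulators, and 39.2% overlapped an H3K4me1 peak of the same cells, against 4.06% of the CpG-poor methylated ones. The control without bisulfite held 92.5% of the lost islands and 91.8% of the lost methylated peaks. A further 2921 lost peaks were of neither kind and 419 had under 20 calls.

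Among lost peaks with at least 20 calls in the 250K library, the 4 with the most CpGs per kb were CpG islands with levels under 3% in the 250K library. At the promoter of Fbxl17, an F-box protein (chr17:63499180-63500674, 146 CpGs per kb), 0 of 141 calls were methylated with 20K, which allows a level of up to 2.13%, and 0.494% of 607 calls with 250K. The promoter of Zdbf2, an imprinted gene (chr1:63272946-63273946, 133 CpGs per kb), had 0 of 42 calls, which allows up to 7.14%, and 0.623% of 321 calls. The promoter of Eif5, a translation initiation factor (chr12:111537788-111538788, 127 CpGs per kb), had 5.17% of 116 calls and 2.87% of 418. The promoter of Slc35d1, a nucleotide sugar transporter (chr4:103214350-103215350, 121 CpGs per kb), had 1.43% of 70 calls and 0.247% of 405. The 100K list held 1 of these 4 peaks, Fbxl17, and the control held all but Eif5. At the other end, the 4 recovered peaks with the fewest CpGs per kb under the same limit on calls (1.25 to 2.19) lay between genes on chromosomes 16, 2, 3 and 16, and their 250K levels were 63.6, 48.6, 67.1 and 51.3%.

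The widest lost peaks were methylated broad regions. The widest, inside the noncoding gene Gm30373 (chr9:43940427-43965397, 24971 bp), had 83.1% of 160 calls methylated with 20K and 82.1% of 1382 with 250K. The peak inside Igfn1, an immunoglobulin-like muscle protein (chr1:135950749-135973483), had 83.8% of 160 and 83.3% of 1417. The peak inside Pknox2, a homeodomain factor (chr9:36933713-36955341), had 73.6% of 159 and 77.3% of 1194. The other 5 of the 8 widest, at Gm52187, at Gm31188 and Gm40959, at Gm22226, inside Gm39116 and at Plaur, the urokinase receptor, had 250K levels from 38.3% (Plaur) to 73.7% (Gm52187). All 8 stood in the 100K list and in the control. None differed in level between the libraries by Fisher's exact test (Benjamini-Hochberg adjusted p from 0.191 to 1).

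The widest recovered peaks were the Hox clusters and an imprinted domain. The widest of all, at Cdkn1c and Slc22a18 next to Kcnq1 (chr7:143299431-143473978, 174548 bp), is an imprinted region in which 1 parental copy is silenced. It held 12 separate 20K peaks, which covered 74.5% of it, and its level was 45.7% of 5193 calls with 20K and 50.5% of 50847 calls with 250K (Fisher's exact test, adjusted p = 2.31e-08). At the CpGs called in both libraries, weighted alike as described below, the difference was 0.136 points. The peaks that hold the Hoxc genes, Hoxb1 to Hoxb9, the Hoxa genes and the Hoxd genes were 174459, 134832, 129311 and 127045 bp wide, broken into 3, 5, 2 and 4 peaks with 20000 cells, which covered 86.6, 84.7, 95.5 and 87.0% of them. Their levels with 20K were 13.8, 12.6, 13.0 and 12.6%, and with 250K 14.3, 13.7, 13.5 and 13.0%. The Hoxb peak passed the test (exact-test adjusted p = 0.0110, matched −0.355 points) and the other 3 did not (exact-test adjusted p = 0.179, 0.298 and 0.423, exact test). The peak at Th, tyrosine hydroxylase (chr7:142846987-142949175), stood apart: 13.2% of its 102189 bp was covered and its level was 80.03% with 250K and 78.7% with 20K. The remaining peaks of the 8 widest were those at Mir9-3 and Rhcg (25.01%) and at Nkx1-1, a homeobox gene (47.3%).

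Most recovered peaks were covered in part, and pooled over peaks the covered stretches were the more CpG-rich. A recovered peak was covered by 20K peaks over a median of 46.03% of its length, and 2504 of all 250K peaks (18.5%) were covered over at least 50% and 44 over at least 90%. In 86.6% of recovered peaks the 20K list held 1 peak, in 10% 2, and in 3.39% 3 or more. The stretches of recovered peaks inside 20K peaks made up 48.0% of the bases and held 28.3 CpGs per kb at a 250K level of 18.9%. The stretches outside held 12.2 CpGs per kb at 66.8%. These outer stretches had 5.48 calls per CpG in the 250K library, against 31.1 inside. Over all 250K peaks 37.2% of the bases were covered by 20K peaks.

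Lost peaks were enriched in the 20K library too. They held 184735 of its calls, 1.06 times the number expected from their 250K calls and the libraries' totals, and recovered peaks held 3649763, 0.957 times the expected number. At like signal the order was the other way. The ratio was 1.46 in recovered and 1.10 in lost peaks at 2 to 5 calls per CpG in the 250K library. It was 1.20 and 1.00 at 5 to 10, and 1.09 and 0.784 at 10 to 20. Recovery is itself defined by the 20K list, so part of this order is built in. In the lost peaks the 20K library had 0.635 calls per CpG, 12.1 times the density outside all H3K27me3 peaks, where the ratio was 13.1 in the 250K library. In recovered peaks the ratios were 56.3 and 67.9. A median lost peak had 14 calls with 20000 cells and 103 with 250000, and 334 lost peaks had no 20K call. In the recovered peaks the medians were 358 and 2356 (rounded from 2355.5).

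The observed over expected 20K calls ran with signal and gene class. Over all 250K peaks the ratio was 1.44 in 107 peaks with under 2 calls per CpG and 1.16 at 2 to 5 and at 5 to 10. It was 1.09 at 10 to 20 and 0.903 at 20 or more, and outside all H3K27me3 peaks it was 1.15. The 250K calls both define these bins and enter the expected number, so part of a fall across the bins is built in. At promoters of developmental regulators it was 0.790 with 20K, 0.733 with 4K and 0.893 with 100K, and the Hox clusters had from 0.732 to 0.756 with 20K. The share of calls outside all H3K27me3 peaks was 22.03% in the 4K, 19.8% in the 20K, 18.5% in the 100K and 17.1% in the 250K library. The part of this background in the lower ratios was not tested.

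Around the centres of peaks at least 20 kb from the nearest other recovered peak, both classes showed a maximum of CpG density and calls and a minimum of methylation. Within 500 bp of the centre, 4395 recovered peaks had 35.0 CpGs per kb, 25.1 calls per CpG and a level of 13.5% in the 250K library. The 4568 lost peaks had 20.5 CpGs per kb, 4.64 calls per CpG and 35.7%. In the outermost bin of 500 bp, up to 10 kb away, the lost peaks' surroundings had 11.0 CpGs per kb, 0.974 calls per CpG and 68.3%. At recovered peaks the same bin had 10.8 CpGs per kb, 4.35 calls per CpG and 34.9%. The 95th percentile of width over all recovered peaks was 28298 bp, so in the widest of them this bin lies inside the peak. Its pooled level is therefore not that of their surroundings. Outside all H3K27me3 peaks the 250K library had 0.338 calls per CpG and a level of 70.6%. In the 20K library the centre of lost peaks had 0.703 and the far flank 0.147 calls per CpG, with levels of 33.5 and 65.7%. So the 20K library showed the peak and the dip in methylation at lost peaks in the sum over peaks. Such pooled levels weight CpG-rich peaks with many calls and do not describe the typical lost peak. Over their whole width, the median 250K level was 64.9% for lost peaks 20 to 100 kb from a recovered peak. It was 59.3% for those 100 kb or more away.

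**Figure D3:**
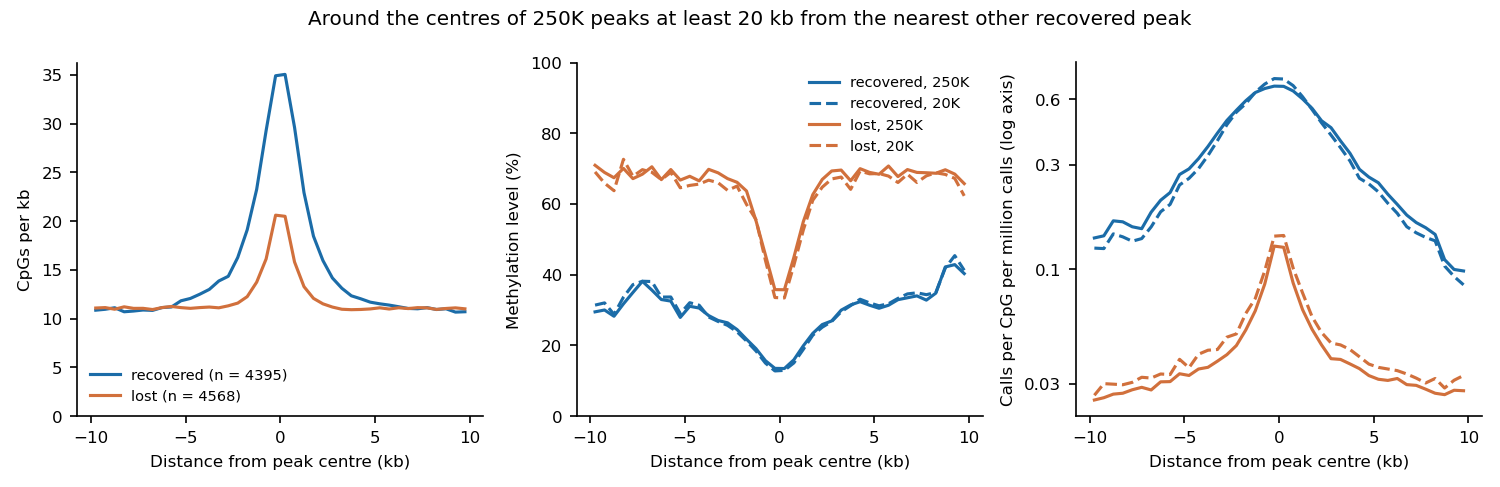
CpGs per kb, pooled methylation level (percent) and calls per CpG scaled to the library's total calls (log axis) against distance from the peak centre (kb), for 4395 recovered (blue) and 4568 lost (orange) 250K peaks, in the 250K (solid) and 20K (dashed) libraries, in bins of 500 bp. At lost peaks both libraries show a rise in calls and a fall in level at the centre.

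Most lost peaks stood in other lists. The 100K list held 4715 of the lost peaks (61.7%), the control without bisulfite 6918 (90.5%) and the 4K list none, and 615 (8.05%) were in neither the 100K list nor the control. The same lists held 99.7% of recovered peaks (100K and control alike) and the 4K list 7.22%. In the 20K library the 615 peaks in neither list had 8.50 times the call density outside all H3K27me3 peaks. Of the lost peaks 17.4% lay under 5 kb from a recovered peak, with a median level of 77.7%, and 28.5% lay 100 kb or more away, with a median of 59.3%. H3K4me1 peaks overlapped 41.2% of recovered and 16.6% of lost peaks. Within the width classes recovery with and without an H3K4me1 peak was 4.89 and 4.12% at 1 to 2 kb, 43.1 and 30.5% at 2 to 4 kb, 78.2 and 65.2% at 4 to 8 kb, and 96.4 and 89.3% over 8 kb.

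The methylation contrast of recovered and lost peaks was present in all 4 bisulfite libraries. In recovered peaks the pooled level was 21.1% in the 4K, 21.5% in the 20K, 22.5% in the 100K and 22.5% in the 250K library. In lost peaks it was 41.9, 44.99, 46.2 and 47.6%. Lost minus recovered was thus 20.8, 23.5, 23.7 and 25.1 points. The chromosomes ranged in the 250K library from 18.6 to 25.3% for recovered and from 38.7 to 55.1% for lost peaks, without overlap. A pooled level weights each CpG by its calls. With each CpG counted once the 250K levels were 38.7% and 51.5%, so the contrast was smaller by that measure.

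With 20000 cells both classes read slightly lower. The 20K minus 250K difference was −1.04 points in recovered and −2.62 points in lost peaks, below 0 on 19 of 19 chromosomes for each. When only CpGs called in both libraries were used, and the 250K level of each was weighted by its 20K calls, the levels were 21.4% and 21.4% in recovered peaks (906945 CpGs, difference 0.0375 points) and 44.89% and 44.95% in lost peaks (118106 CpGs, difference −0.0589 points). On the chromosomes this matched difference ranged from −0.0617 to 0.181 points in recovered and from −0.705 to 0.612 in lost peaks. With both libraries weighted by the 20K calls, the levels thus differed by less than 0.1 points in either class. With each library's own calls at these CpGs, the 20K level was higher by 1.21 points in recovered and by 2.58 in lost peaks.

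**Figure D4:**
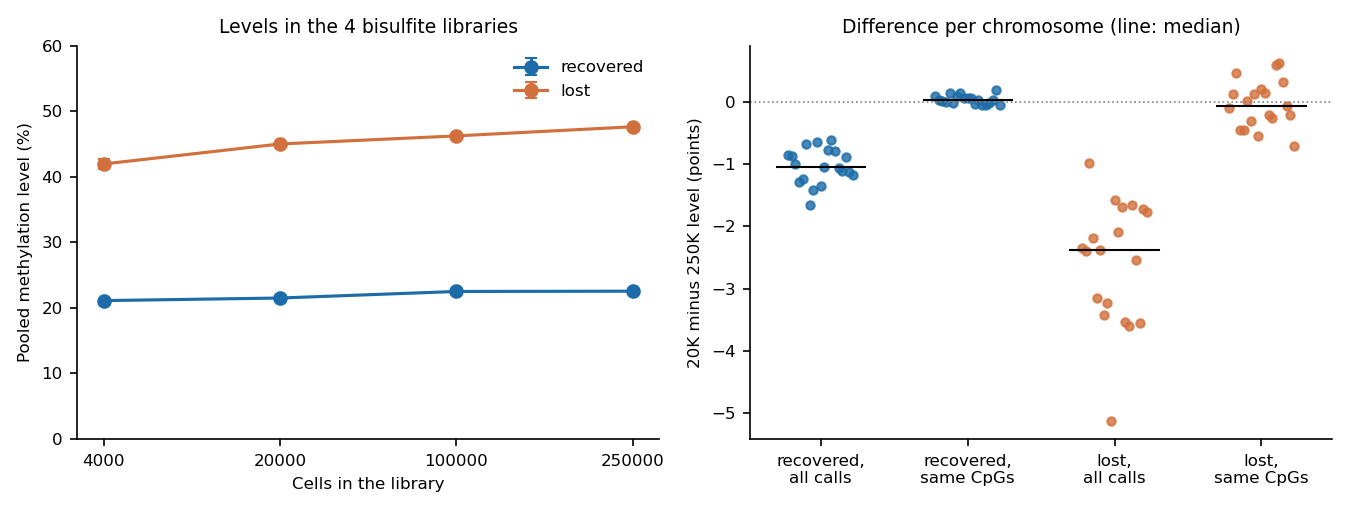
Left, pooled methylation level (percent) of recovered (blue) and lost (orange) 250K peaks in the libraries from 4000 to 250000 cells; 95% Wilson intervals are mostly smaller than the points. Right, 20K minus 250K level (percentage points) on each of the 19 chromosomes from all calls and from CpGs called in both libraries weighted alike, with the median as a line. All-call differences lie below 0 and matched differences scatter around it.

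Peak by peak, Fisher's exact test (two-sided, Benjamini-Hochberg adjusted over 8825 peaks with at least 20 calls in each library) called 1022 peaks different (11.6%), 785 lower with 20K (8.9%) and 237 higher (2.69%). The test compares these 2 libraries, not cell numbers. It counts each call as independent, which calls on 1 fragment and amplified copies are not, so its p-values are too small. It called 885 of 5798 recovered (15.3%) and 137 of 3027 lost peaks (4.53%), which differ in depth: the median tested peak had 366 and 40 calls with 20K. A difference of 20 points or more was called in 33 recovered and 83 lost peaks. By 20K calls, the median absolute differences were 7.29 points (recovered) and 6.81 (lost) at 20 to 50 calls, 4.93 and 4.71 at 50 to 100, and 4.02 and 3.01 at 100 to 200.

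The called differences shrank when the CpGs were matched. The 785 peaks called lower had a median difference of −7.48 points from all calls and −0.875 points from CpGs in both libraries weighted alike, and the 237 called higher had 9.27 and 2.12 points. Over all tested peaks the median matched difference was 0 points, 49.7% lay below 0, and 98.3% of recovered and 82.6% of lost peaks lay within 10 points of 0. With plain sums over the CpGs called in both libraries more peaks were called higher (458) than lower (136) with 20K. With matched weights 593 of 784 peaks called lower (75.6%) lay below 0, and 35 of 236 called higher (14.8%) did. The numbers called in each direction thus depended on which CpGs were used and how they were weighted.

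Of the 4 largest called differences in each direction, 8 in all, 7 were in lost peaks. The largest fall was inside Spire2, an actin nucleator (chr8:123353546-123354546), at 5% of 20 calls with 20K and 48.5% of 132 with 250K (exact-test adjusted p = 0.00367), and it stayed at −39.3 points with matched CpGs. The next were at Gm13788, a recovered peak (31.8% and 75%, matched −27.2 points), between genes on chromosome 4 (3.23% and 45.8%, matched −19.3 points) and inside Krt79, a keratin (16.7% and 58.6%, matched −23.0 points). The largest rise was at Faim, an apoptosis inhibitor (chr9:98982501-98986821), with 90.9% of 22 calls against 33.2% of 401 (exact-test adjusted p = 8.9e-06), which came down to 12.7 points with matched CpGs. Inside 2810032G03Rik, at Etv3, an ETS family repressor, and between genes on chromosome 5, rises of 57.4, 50.2 and 47.9 points came down to 9.92, 2.69 and 8.90. Each of these 8 rests on 20 to 48 calls with 20K.

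By gene class, recovery ran from regulator promoters down to intergenic DNA. Of 211 peaks at a promoter (within 1000 bp of a gene start) of a developmental regulator 97.6% were recovered, of 5097 at another protein-coding promoter 74.4%, of 1021 at another gene's promoter 44.9%, of 3947 inside genes 22.3%, and of 3235 between genes 16.4%. Width went with class, and within 2 to 4 kb the shares were 57.5% at protein-coding promoters, 19.3% inside genes and 16.0% between genes. Counted by gene, 5788 of 20661 protein-coding genes had a 250K peak at a promoter (28.0%), of which 4441 had a recovered one (76.7%) and 1347 did not. The lost promoter peaks were CpG-rich (median 30.9 CpGs per kb, against 22.3 in the recovered) and as little methylated (18.6% against 20.2%), but narrow (1893 against 8338 bp).

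Of the genes of transcription factor families that had a 250K peak, nearly all were recovered, where the share over all protein-coding genes with a peak was 76.7%. Their recovered peaks were wide, with medians from 17283 bp (bHLH) to 129311 bp (Hox), and of the peaks over 8 kb at other protein-coding promoters 97.6% were recovered too. All 39 Hox genes on these chromosomes had a promoter in a recovered 250K peak, in 5 peaks: the 4 wide ones above and a separate peak at Hoxb13. The same held for 111 of 114 other homeobox genes, 8 of 9 Pax genes, 11 of 15 T-box genes and 5 of 5 Gata genes. In none of these lists did a gene have lost promoter peaks only. A recovered peak need not hold a 20K peak at each promoter within it. Of the 45 silent genes checked above, all with a promoter in a recovered peak, 44 carried a 20K peak. At Pax6, the master factor of the eye, the level was 13.7% of 4786 calls with 20K and 13.4% of 45684 with 250K, and at Gata6, of primitive endoderm, 11.0% of 2481 and 10.6% of 25088. Tbx4, a limb factor, had a more methylated peak (39.3 and 35.8%, exact-test adjusted p = 0.00887, matched 1.09 points) that was 36.1% covered.

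The 4 genes of these families with lost peaks only had narrow peaks. Of 41 Forkhead genes 30 had a peak, 28 recovered and 2 lost, Foxo3 and Foxn1. Of 18 Sox genes 14 had a peak, 13 recovered and 1 lost (Sox12), and of 41 bHLH genes 33 had a peak, 32 recovered and 1 lost (Myf6). The peaks at Foxo3, a stress response factor, and at Sox12 were CpG islands of 1669 and 1001 bp, with 0.778% of 514 and 0.543% of 184 calls methylated in the 250K library. The 20K library gave 1.37% of 73 calls at Foxo3 and 0 of 42 at Sox12, which allows up to 7.14%. The peaks at Foxn1, the thymus factor, and Myf6, a muscle factor, were both 1001 bp, at 84.6% of 39 and 56.4% of 78 calls with 250K, and at 60% of 5 and 56.5% of 23 calls with 20K. Another lost peak at a regulator promoter, described after its values were seen (3613 bp, 16.6 CpGs per kb, 67.5% methylated with 250K), belongs to a gene with another promoter in a recovered peak. For comparison, recovered Sox17, an endoderm factor, had 8.42% of 2659 and 8.44% of 23103 calls.

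Signal and neuronal genes with a peak were recovered more often than the 76.7% of all protein-coding genes with a peak. Of 76 secreted signals of the Wnt, Fgf, Bmp and related families 61 were recovered (96.8% of 63 with a peak, interval 89.1 to 99.1%) and 2 lost, Fgf22 (0 calls with 20K, 169 with 250K at 6.51%) and Gdf2 (81.5% of 27 and 60.4% of 106 calls). The peak of Wnt1 and Wnt10b had 17.7% of 9250 and 16.5% of 84346 calls methylated (exact-test adjusted p = 0.0403, matched 0.433 points). Of 207 neuronal channel and receptor genes 144 were recovered (92.3% of 156 with a peak, interval 87.04 to 95.5%) and 12 lost. Of the lost, Cacng6, Grik5, Kcnip2 and Kcnab2 had the most calls, and their 250K levels were 23.2, 23.3, 13.6 and 19.3%. Of 67 protocadherins, adhesion proteins of neurons, 49 were recovered and 2 lost, Pcdhb8 and Pcdhb9 (31.8 and 55.9% with 250K).

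Among germline, keratin and olfactory receptor genes with a peak the shares recovered were 37.5, 50 and 33.3%, against 76.7% of all protein-coding genes with a peak. Of 12 germline genes 8 had a 250K peak, of which 3 were recovered (Tdrd1, Sycp1 and Ddx4) and 5 lost (Dazl, Hormad1, Rpl10l, Slc25a31 and Tex101). Their recovered peaks had a median level of 49.7% and their lost peaks of 72.1%. The Slc25a31 peak had 90.4% of 83 calls with 20K and 72.1% of 631 with 250K (exact-test adjusted p = 0.00395), or 6.84 points with matched CpGs. Ddx4, a germ cell helicase, was recovered over 10.4% of its peak, at 22.7% of 233 and 38.4% of 1318 calls (exact-test adjusted p = 0.000178, matched −8.33 points). Of 49 keratin genes 8 were recovered and 8 lost, with median levels of 46.9 and 73.5%. The recovered keratins with the most 250K calls were Krt18, Krt1, Krt87 and Krt8, at 250K levels of 35.5, 49.9, 43.9 and 21.7%. Of the lost, Krt2, Krt73, Krt77 and Krt90 had 75.5, 88.9, 83.8 and 71.4%. Of 1452 olfactory and vomeronasal receptors 12 had a 250K peak, 4 recovered and 8 lost (median levels 38.5 and 60.7%). These lists are small, and the interval of the share recovered reached from 13.7 to 69.4% for germline genes, from 28.0 to 72.0% for keratins and from 13.8 to 60.9% for the receptors.

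**Figure D5:**
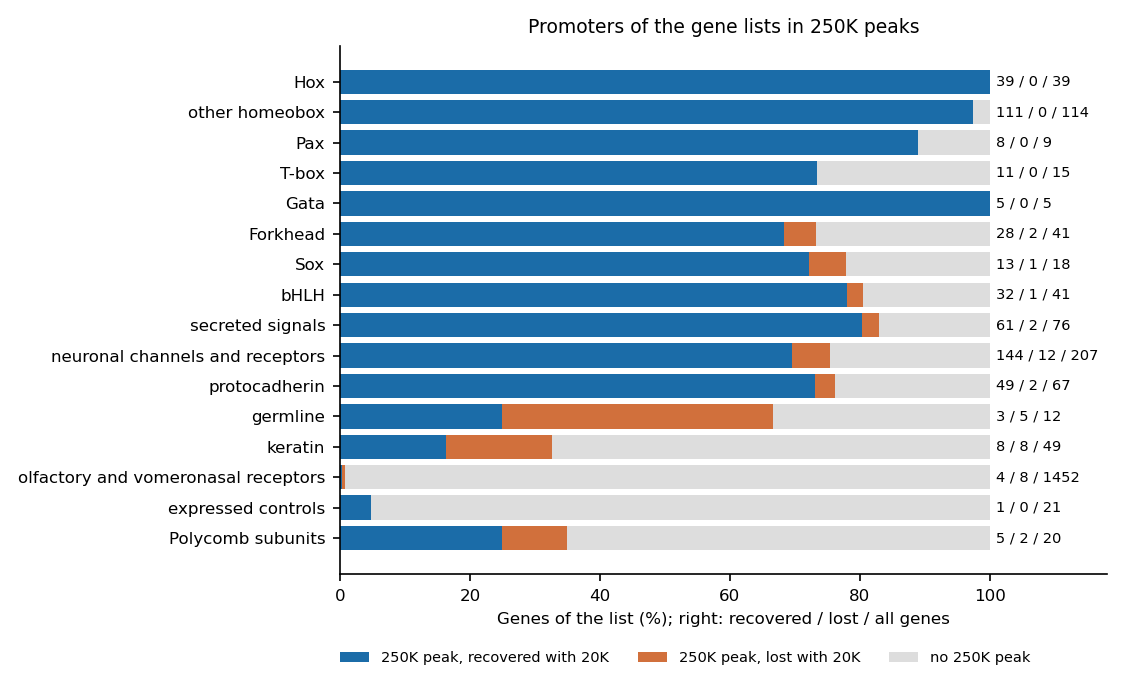
Genes of each list (percent of all its genes) with a promoter in a recovered 250K peak (blue), in lost 250K peaks only (orange) or in none (grey); numbers at the right are recovered, lost and all genes. Hox, other homeobox, Pax, T-box and Gata lists show no gene with lost peaks only, and germline, keratin and olfactory receptor genes show the largest lost shares among genes with a peak.

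Of 20 genes for Polycomb subunits 7 had a 250K peak. Of these 5 were recovered (71.4%, interval 35.9 to 91.8%), a share near the 76.7% of all protein-coding genes with a peak, among them Pcgf1 and Pcgf5, subunits of variant PRC1. The Pcgf1 peak had 15.4% of 1785 calls methylated with 20K and 15.3% of 17135 with 250K. Kdm2b, which brings PRC1 to CpG islands, and Pcgf3 were lost. The Kdm2b peak (2325 bp, 64.9 CpGs per kb) had 0 of 111 calls methylated with 20K, which allows up to 2.70%, and 9.29% of 549 with 250K (exact-test adjusted p = 0.00305, matched −2.04 points). Of 21 genes expressed in these cells 1 had a 250K peak at a promoter, Esrrb, a pluripotency factor. Its promoters lay in 2 recovered peaks, with a median 250K level of 54.0%. The less methylated of them (chr12:86407331-86428121) had 33.8% of 1162 and 26.1% of 9532 calls (exact-test adjusted p = 5.4e-06, matched −0.645 points).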

How the data were processed

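The members, bins and gene lists were chosen with earlier results of these data known. Per the submitters' processing notes the build is mm10 and the tools named are cutadapt 1.12, Bismark 0.23.0, Bowtie2 2.3.0, HOMER 4.10.3 and bedtools 2.29.2; their roles, settings, peak thresholds and the treatment of duplicate reads are not given in the sources used here. The deposited table holds whole-number counts per CpG and library, methylated calls and all calls, without normalization. The peak lists deposited by the authors hold positions only, with no score, called per sample. All 407620 CpGs of 32619 RefSeq GRCm38.p6 promoter sequences matched table positions.

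Calls were summed over peaks with Python 3.11.15, numpy 2.4.6 and pandas 2.3.3. Medians and bins of peak levels and the Fisher tests required at least 20 calls. Pooled levels and the levels of named genes and promoter windows had no such limit. Fisher's exact test (scipy 1.17.1) with Benjamini-Hochberg adjustment (statsmodels 0.14.6, threshold 0.05) was tested on simulated data. Gene starts came from the promoter table for 79.6% of protein-coding genes, and otherwise from the gene end with more CpGs, a choice that met a table start in 77.1% of 17273 genes. A gene counts as recovered when any of its promoters lies in a recovered peak.

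Named were the 8 widest recovered and lost peaks, the 4 largest called differences in each direction, the 5 widest 20K peaks without a 250K peak, per gene list up to 4 recovered and 4 lost members with the most 250K calls, and the 4 lost peaks with the most and the 4 recovered with the fewest CpGs per kb. Dazl, named to complete a count of 5, and the examples Gdf1 and Kcnip1 stand outside or beside that rule. Chromosomes X, Y and scaffolds were left out of the main counts. Some genes that the rule names are not reported here.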

Additional observations from a re-analysis of the deposited data

How the results depend on the processing

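The share recovered was 18.5% when at least 50% of a peak had to be covered (18.5% also when the 20K peak had to be covered alike), 47.9% with 250K peaks closer than 3 kb merged, 74.6% among the widest 250K peaks, as many as the 20K list holds, 45.8% among peaks with a control peak, and 43.2% with chromosome X. The pooled 250K level of recovered and lost peaks was 20.3 and 29.3% under the 50% rule, 38.7 and 51.5% with each CpG counted once, 21.7 and 44.5% at CpGs with at least 5 calls, and 20.2 and 42.3% at CpGs called in both libraries. Lost peaks stayed the more methylated class under each of these 4 alternatives. The median level of lost peaks was 63.1% with at least 50 calls required. Fisher's test called 594 peaks at CpGs called in both libraries (136 lower, 458 higher with 20K) and 116 with a difference of at least 20 points (78 lower, 38 higher). With a promoter window of 250 bp before to 50 bp after the start, recovery was 99.5% for regulator, 77.7% for other protein-coding and 51.0% for other promoters. The following measures of the 20K minus 250K difference were added after the data had been seen: over CpGs called in both libraries it was 1.21 points in recovered and 2.58 in lost peaks from summed calls, 0.0375 and −0.0589 with both libraries weighted alike, and 0.0418 and −0.0353 with each CpG counted once. Summing calls over shared CpGs keeps those with a 20K call, which favours CpGs deep in the 250K library, by construction. No paired analysis was possible because each cell number has 1 library. Depth limits single peaks: 39.6% of lost peaks reached 20 calls with 20K, against 98.8% of recovered peaks.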

Other observations

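The 20K list held 74 peaks on chromosomes 1 to 19 that shared no base with the 250K list as used here, against 7006 that did. Their median width was 1001 bp, 23 stood in the 100K list and 18 in the control. In these 74 intervals the 250K library held 111928 calls and the 20K library 15132, 1.00 times the number expected from the libraries' totals, at levels of 20.4 and 21.1%. They were of mixed strength: 24 had at least 10 calls per CpG in the 250K library (median width 4463 bp, rounded from 4462.5), where 97.9 to 100% of the 250K peaks were recovered, and 42 had under 5 (median 1001 bp).

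The widest lay at Gdnf, a growth factor for neurons and kidney (chr15:7806596-7821809, 15214 bp), with 17.3% of 3275 calls methylated with 20K and 15.5% of 31189 with 250K, and it stood in the control. The next were at Hrh3, a histamine receptor (20.6% of 1086 and 26.9% of 8765 calls), at Cerk, ceramide kinase (19.2% of 1383 and 19.99% of 9419), at Tmem125 (62.2% of 230 and 64.6% of 2288) and between genes on chromosome 2 (18.1% of 855 and 19.2% of 6761). The 250K library was thus high in calls at intervals that its list, as used here, does not cover. These were chosen by width from the 74 after the lists were compared.

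On chromosome X 147 of 403 250K peaks were recovered (36.5%, Wilson interval 31.9 to 41.3%), with pooled 250K levels of 24.5% in recovered and 40.7% in lost peaks and median widths of 6491 and 1601 bp (rounded from 1600.5).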
